A study of Homo sapiens with 4 samples.

Results

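The genes described here are BMP2 and 6 regulators tied to it in the atrioventricular canal of the developing heart: TBX2, TBX3, MSX1, MSX2, RSPO3 and HAS2. They were picked by symbol, and all 7 were found among the 23615 symbols of the deposited gene table. The choice was made with the difference between the culture types in these libraries in view, so their levels and differences are given as a description, with no test. All 7 had a mean of at least 1 FPKM, the level at which 12398 genes were tested.

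Cultures at day 14, derived from the human embryonic stem cell line RUES2, were compared by poly-A RNA-seq in 4 libraries. Cardiac progenitor cell-derived cardiac myocytes (CPC, n = 2) were made from cultures induced with activin A at 100 ng/ml and then BMP4 at 5 ng/ml, with the tankyrase inhibitor XAV-939 (XAV), which lowers Wnt/β-catenin signaling, added at 1 µM on day 3 in the scheme of the study, although its methods give this step for only some experiments, and the sources do not say whether these cultures received it. Anterior hemogenic endothelial-derived cardiac myocytes (ECsXAV, n = 2) had the same induction, then VEGF at 200 ng/ml with BMP4 at 10 ng/ml and bFGF from day 2 to make endothelial cells (ECs), and then 2 µM XAV from day 5. Both groups were also given CHIR-99021, an activator of Wnt/β-catenin signaling, at the start. The cultures were unsorted and came from a single cell line, and the ECsXAV cells had received exogenous BMP4 for longer than the CPC cells.

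Values are FPKM, the fragments of a gene scaled to the length of its transcript and to the mapped fragments of the library, so the total depth is unknown. From the spacing of FPKM values of very low genes, the depth of ECsXAV replicate 2, CPC replicate 1 and CPC replicate 2 was 50.2%, 86.8% and 79.8% of that of ECsXAV replicate 1. Cardiomyocyte markers (TNNT2, MYH6, ACTN2, MYL7 and NKX2-5) summed to 12281 to 12659 FPKM in ECsXAV and 11941 to 12582 FPKM in CPC libraries. Most of this sum was MYL7, with a mean of 8661 FPKM in ECsXAV and 6921 FPKM in CPC cultures, and the single markers were not equal: MYH6 had 855 and 857 FPKM in ECsXAV and 2070.0 and 1901 FPKM in CPC replicates (log2 difference 1.21, adjusted p = 0.0358 from limma). The prefix of the library names is not the same in the 2 groups, and the labels do not say what it stands for. Whether the groups also came from different experiments is unknown, and such an effect could not be told apart from that of the group. With 2 libraries against 2, the smallest two-sided p of an exact permutation test is 0.333.

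In the embryonic heart tube, the myocardium of the atrioventricular canal secretes BMP2, a ligand of the bone morphogenetic protein family. Its receptors phosphorylate SMAD proteins, which turn on TBX2 and the MSX genes. TBX2 and TBX3 are T-box repressors that keep chamber genes silent in the canal, MSX1 and MSX2 are homeobox repressors of the canal and its cushions, HAS2 is the enzyme that makes hyaluronan for the swelling cushion matrix, and RSPO3 is a secreted protein that strengthens Wnt signaling.

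Upstream sequence was at hand for 3 of the 7 genes in the RefSeq promoter table (GRCh38.p14), namely MSX1, MSX2 and RSPO3. They are shown because MSX1 and MSX2 are paralogs that went in opposite directions and RSPO3 had the largest difference of the 7 genes. Each is the 250 bases before the annotated start of the gene, 5′ to 3′, with the letters CCAAT or their reverse complement in capitals.
MSX1 (chr4:4859415-4859664, plus strand): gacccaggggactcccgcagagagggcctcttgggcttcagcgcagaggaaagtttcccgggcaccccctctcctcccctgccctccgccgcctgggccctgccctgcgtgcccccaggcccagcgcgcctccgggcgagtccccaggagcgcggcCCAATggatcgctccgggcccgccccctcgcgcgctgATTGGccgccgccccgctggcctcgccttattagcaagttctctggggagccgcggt
MSX2 (chr5:174724332-174724581, plus strand): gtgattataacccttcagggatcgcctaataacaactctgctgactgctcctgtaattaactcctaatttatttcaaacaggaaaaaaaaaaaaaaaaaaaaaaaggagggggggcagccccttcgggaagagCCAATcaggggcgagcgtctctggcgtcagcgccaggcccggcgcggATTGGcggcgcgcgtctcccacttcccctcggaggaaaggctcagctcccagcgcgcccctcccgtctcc
RSPO3 (chr6:127118421-127118670, plus strand): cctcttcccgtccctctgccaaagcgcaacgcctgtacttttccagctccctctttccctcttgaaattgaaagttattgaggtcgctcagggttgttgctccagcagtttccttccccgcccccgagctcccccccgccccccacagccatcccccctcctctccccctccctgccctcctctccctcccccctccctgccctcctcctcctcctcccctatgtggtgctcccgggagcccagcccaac

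MSX1 and MSX2 each held 2 CCAAT boxes, of which the first bases lay 94 and 57 bases before the start of MSX1 and 117 and 70 bases before that of MSX2. At least 1 match to these letters on either strand was present in 33.0% of the 27305 windows of this length. No match was found in the RSPO3 window. The letters TAATTA, a homeobox core, matched once, in MSX2, and occur in 4.49% of all windows. On neither strand of the 3 windows was there a match to the T-box letters GGTGTGA, which occur in 2.72% of all windows, or to the TCF/LEF letters CTTTGAT, which occur in 2.28%. The same held for the TATA box letters TATAAA, present in 11.1%, and for the SMAD letters GGCGCC, present in 16.1%. GC content was 74.0% for MSX1, 55.6% for MSX2 and 64.8% for RSPO3, beside a median of 58.0% over all windows.

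BMP2 lies on chromosome 20 from 6748333 to 6760893 in GRCh37 (hg19), the build of all gene positions given here, and had 19.3 and 19.5 FPKM in ECsXAV and 121 and 100.3 FPKM in CPC replicates. The mean FPKM was 5.70-fold higher in CPC cultures. The lower CPC library was 5.15 times the higher ECsXAV library, while the ECsXAV replicates were almost equal. In bulk RNA from unsorted cultures, a change in the number of cells that express a gene and a change in RNA per cell cannot be told apart.

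**Figure D1:**
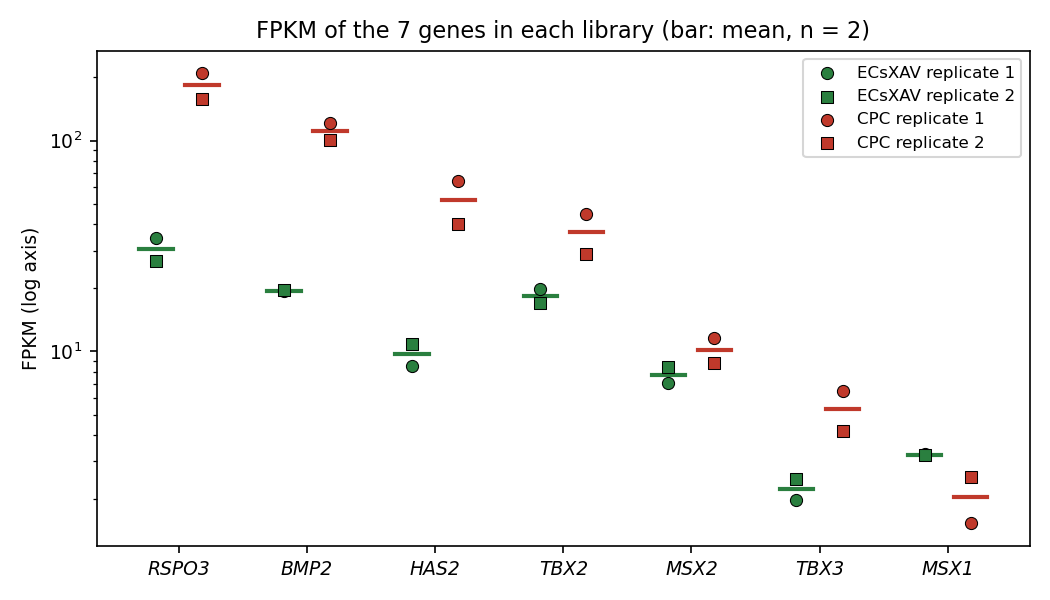
FPKM of BMP2, RSPO3, HAS2, TBX2, TBX3, MSX1 and MSX2 on a log axis in the 2 ECsXAV (green) and 2 CPC (red) libraries, with circles for replicate 1, squares for replicate 2 and a bar at the mean of each group. CPC libraries lie above ECsXAV libraries for 6 genes and below them for MSX1, and the widest separations are those of RSPO3, BMP2 and HAS2.

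BMP2 was measured among other ligands of its family that the cultures also expressed. BMP5 had 79.6 and 67.0 FPKM in ECsXAV and 56.9 and 57.0 FPKM in CPC replicates, a log2 difference of -0.35 that did not pass (adjusted p = 0.246 from limma). BMP7 had 67.8 and 66.8 FPKM in ECsXAV and 60.1 and 67.9 FPKM in CPC replicates. BMP4, the ligand added to the medium during induction, had 0.966 to 1.94 FPKM in the 4 libraries. Of the summed FPKM of BMP2, BMP4, BMP5, BMP6, BMP7 and BMP10, BMP2 made up 12.0% ± 0.753 (SD, n = 2) in ECsXAV and 47.3% ± 4.40 (SD, n = 2) in CPC cultures. In CPC replicate 1 and replicate 2, BMP2 was thus the most abundant of the 6 ligands per length, whereas BMP5 and BMP7 each exceeded it in the ECsXAV replicates.

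**Figure D2:**
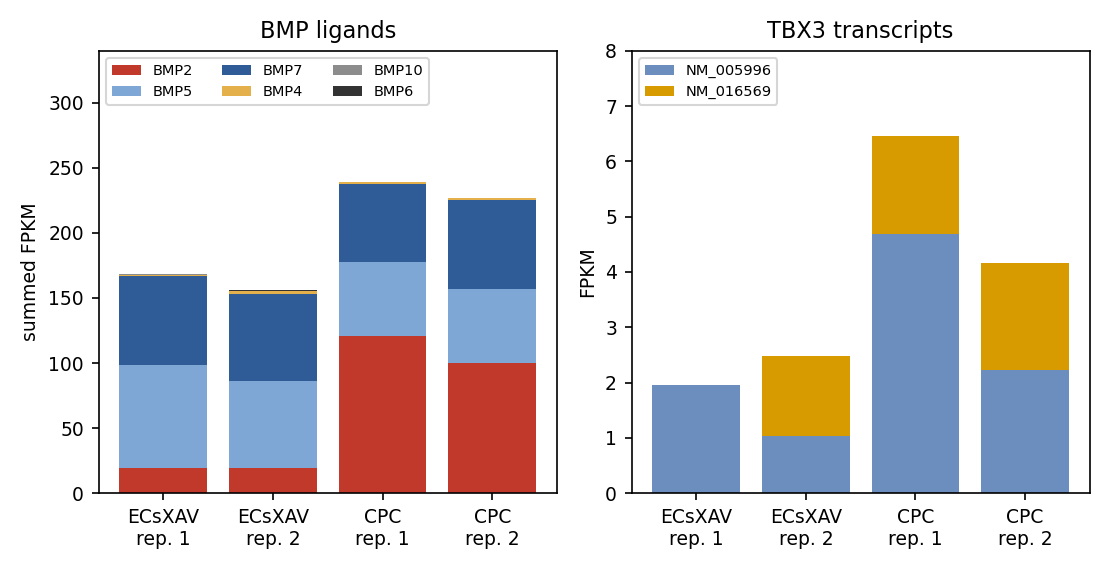
Left, FPKM of 6 BMP ligands stacked for each library; right, FPKM of the 2 TBX3 transcripts stacked for each library, both on linear axes from 0. BMP2 is the largest segment of both CPC columns and a minor one of both ECsXAV columns, and NM_016569 is close to 0 in ECsXAV replicate 1 alone.

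TBX2 (chromosome 17, 59477204 to 59486827) had 19.7 and 17.0 FPKM in ECsXAV and 44.7 and 28.9 FPKM in CPC replicates. The means differed 2.00-fold. The groups did not overlap, and the lower CPC library was 1.46 times the higher ECsXAV library, while the CPC replicates themselves differed by a similar factor.

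TBX3, on chromosome 12 from 115108060 to 115121980, was expressed at a lower level than TBX2, at 1.96 and 2.47 FPKM in ECsXAV and 6.46 and 4.17 FPKM in CPC replicates. Its mean was 2.40-fold higher in CPC cultures, with no overlap between the groups. TBX2 made up 89.1% ± 2.62 (SD, n = 2) of the summed FPKM of the T-box pair in ECsXAV and 87.4% ± 0.0012 (SD, n = 2) in CPC cultures, a difference smaller than the spread between the ECsXAV replicates. Other T-box genes lie near the pair. TBX5, which lies 261812 bases from TBX3, had 16.7 and 18.95 FPKM in ECsXAV and 12.8 and 15.4 FPKM in CPC replicates (log2 difference -0.32, adjusted p = 0.315 from limma). TBX4, 42937 bases from TBX2, had 0.0398 to 0.0795 FPKM in the 4 libraries, with overlapping groups.

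Of the 7 genes, TBX3 alone has more than 1 transcript in the deposited transcript table. The T-box coding sequence of NM_016569 is known to hold an extra exon that NM_005996 lacks, and this exon is shown because it is the stretch in which the proteins differ. It has 60 bases (20 codons, all coding) on the minus strand of GRCh37.
TBX3 alternative exon (chr12:115117718-115117777): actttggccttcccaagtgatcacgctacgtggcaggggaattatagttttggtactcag
NM_005996 had 1.96 and 1.03 FPKM in ECsXAV and 4.68 and 2.23 FPKM in CPC replicates. NM_016569 had 0.000563 and 1.44 FPKM in ECsXAV and 1.78 and 1.94 FPKM in CPC replicates. Its share of TBX3 was 0.0288% and 58.3% in the ECsXAV and 27.5% and 46.5% in the CPC replicates, so the ECsXAV replicates spanned the CPC values and no difference in the use of the exon was detectable. Whether the value near 0 in ECsXAV replicate 1 is a failed estimate was not tested.

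MSX2 (chromosome 5, 174151585 to 174157899) had 7.05 and 8.40 FPKM in ECsXAV and 11.5 and 8.78 FPKM in CPC replicates. The groups were separated by a factor of 1.04 only, and the CPC replicates differed from each other by more than that. MSX1, on chromosome 4 from 4861392 to 4865663, went the other way, with 3.25 and 3.22 FPKM in ECsXAV and 1.53 and 2.55 FPKM in CPC replicates, a mean 1.59-fold higher in ECsXAV cultures. The share of MSX2 in the summed FPKM of the pair was 70.4% ± 2.74 (SD, n = 2) in ECsXAV and 82.9% ± 7.62 (SD, n = 2) in CPC cultures. Neural crest also expresses MSX genes, and its 5 markers, among them SOX10, FOXD3, TFAP2A and TFAP2B, were below 1 FPKM in all 4 libraries, with a summed level of 0.207 to 0.245 FPKM in ECsXAV and 0.040 to 0.326 FPKM in CPC libraries.

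HAS2, on chromosome 8, had 8.52 and 10.9 FPKM in ECsXAV and 64.0 and 40.2 FPKM in CPC replicates. Its mean was 5.37-fold higher in CPC cultures, and the lower CPC library was 3.70 times the higher ECsXAV library. HAS2 made up 98.4% to 99.8% of the summed FPKM of the 3 hyaluronan synthases in the 4 libraries, since HAS1 was listed at 0 and HAS3 had at most 0.285 FPKM. HAS2-AS1, an antisense gene that overlaps HAS2 by 2148 bases in the annotation, had 0.667 and 0.751 FPKM in ECsXAV and 1.54 and 0.911 FPKM in CPC replicates. Whether strand was used for the FPKM is not given in the sources used here, so reads from the overlap cannot be assigned to either gene with certainty.

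RSPO3 (chromosome 6, 127439816 to 127520626) had 34.3 and 26.9 FPKM in ECsXAV and 209 and 158 FPKM in CPC replicates. Its mean was 5.99-fold higher in CPC cultures, and the groups were separated by a factor of 4.60. Among the R-spondins, RSPO3 made up 93.0% ± 0.643 (SD, n = 2) of the summed FPKM in ECsXAV and 98.6% ± 0.0508 (SD, n = 2) in CPC cultures. RSPO4 supplied most of the rest at 1.83 to 2.89 FPKM, and RSPO1 was listed at 0 in all libraries.

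On the log2(FPKM + 1) scale, on which the added 1 understates changes of low values, the CPC minus ECsXAV difference was 2.54 for RSPO3, 2.45 for BMP2, 2.28 for HAS2, 0.95 for TBX3, 0.94 for TBX2, 0.35 for MSX2 and -0.50 for MSX1. The pooled SD between replicates on this scale was 0.13 for BMP2 and ran from 0.21 to 0.37 for the others. Of the 7 genes, 6 had both CPC libraries above both ECsXAV libraries, as did 24.4% of all tested genes, and 1 had both below, as did 25.4%. On the log2(FPKM + 1) scale a difference over 2-fold was found for 3 of the 7, all higher in CPC, beside 1.84% of all tested genes higher and 2.76% lower. These shares are printed as background only, since the genes were chosen with this contrast known. The median difference over all tested genes was within 0.01 of 0 and the 5th and 95th percentiles were -0.68 and 0.53. With an added 0.1 in place of 1, TBX3 was also over 2-fold, at 1.20. Without CPC replicate 1 the difference of MSX2 was 0.17 and that of MSX1 was -0.26, and without CPC replicate 2 that of MSX2 was 0.53.

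**Figure D3:**
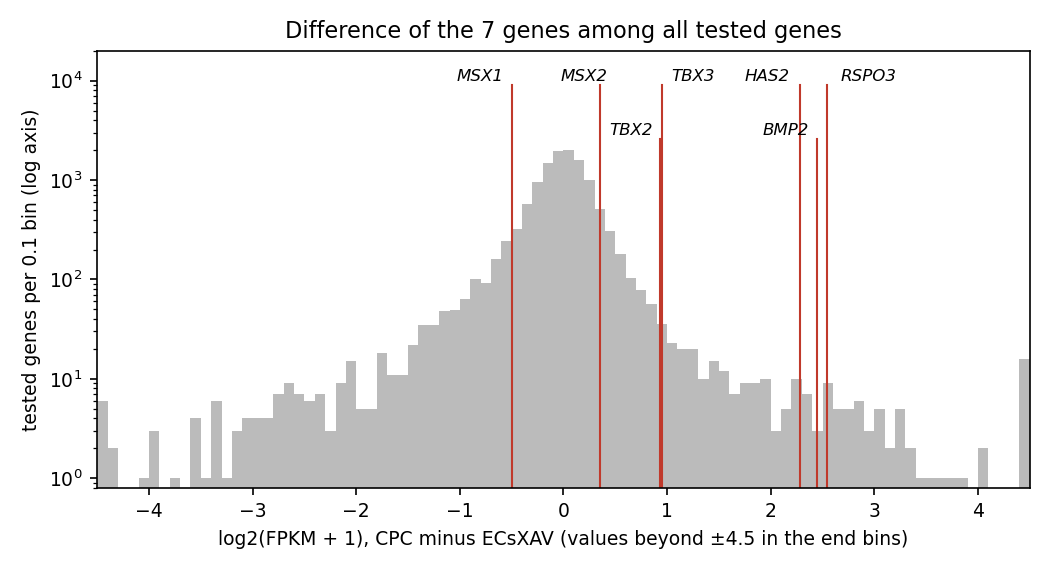
Histogram of the CPC minus ECsXAV difference in mean log2(FPKM + 1) over the 12398 tested genes, in bins of 0.1 with a log count axis, with a red line at each of the 7 genes. RSPO3, BMP2 and HAS2 lie at 2.28 to 2.54, TBX2 and TBX3 near 0.95, MSX2 at 0.35 and MSX1 at -0.50.

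The order of the 7 levels also differed between the groups. RSPO3 was the highest in each library. BMP2 came next in both CPC replicates, followed by HAS2 and TBX2, whose replicate ranges overlapped. In the ECsXAV replicates BMP2 and TBX2 changed places between replicates and did not differ beyond their spread. MSX1 was above TBX3 in both ECsXAV replicates and below it in both CPC replicates. The value of CPC replicate 1 exceeded that of CPC replicate 2 for 6 of the 7 genes, MSX1 being the exception, and the CPC replicates differed by factors of 1.20 to 1.66, against 1.01 to 1.28 for the ECsXAV replicates. Over all tested genes, CPC replicate 1 was the higher for 50.7%.

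Outside the 7 genes, those with profiles closest to BMP2 over the 4 libraries, by the root mean square distance between log2(FPKM + 1) values centred on each gene's mean, were UNCX (0.053), WNT2 (0.130), TNNC2 (0.172), STAC3 (0.194) and DCP1B (0.217). WNT2 had 4.45 and 5.30 FPKM in ECsXAV and 40.6 and 27.8 FPKM in CPC replicates. Of the other 6 genes described here, RSPO3 and HAS2 were the third and the fifth closest among all tested genes, with distances of 0.142 and 0.194. These distances rest on 4 libraries and mostly reflect the difference between the groups, which was known when the 7 genes were chosen. The closeness of RSPO3 and HAS2 to BMP2 is therefore not a separate result. TNNC2 and STAC3 are best known from skeletal muscle, of which the 6 markers summed to 0.707 to 1.05 FPKM in ECsXAV and 0.969 to 1.31 FPKM in CPC libraries, with MYF5 and PAX7 listed at 0 in all.

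Genes around these 7 were taken from lists of the same pathways and processes. They were tested with limma over all 12398 genes, with Benjamini-Hochberg adjustment, and passed at an adjusted p under 0.05 with more than a 2-fold difference on the log2(FPKM + 1) scale. Of all tested genes 2.15% passed, 0.71% higher and 1.44% lower in CPC cultures.

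**Figure D4:**
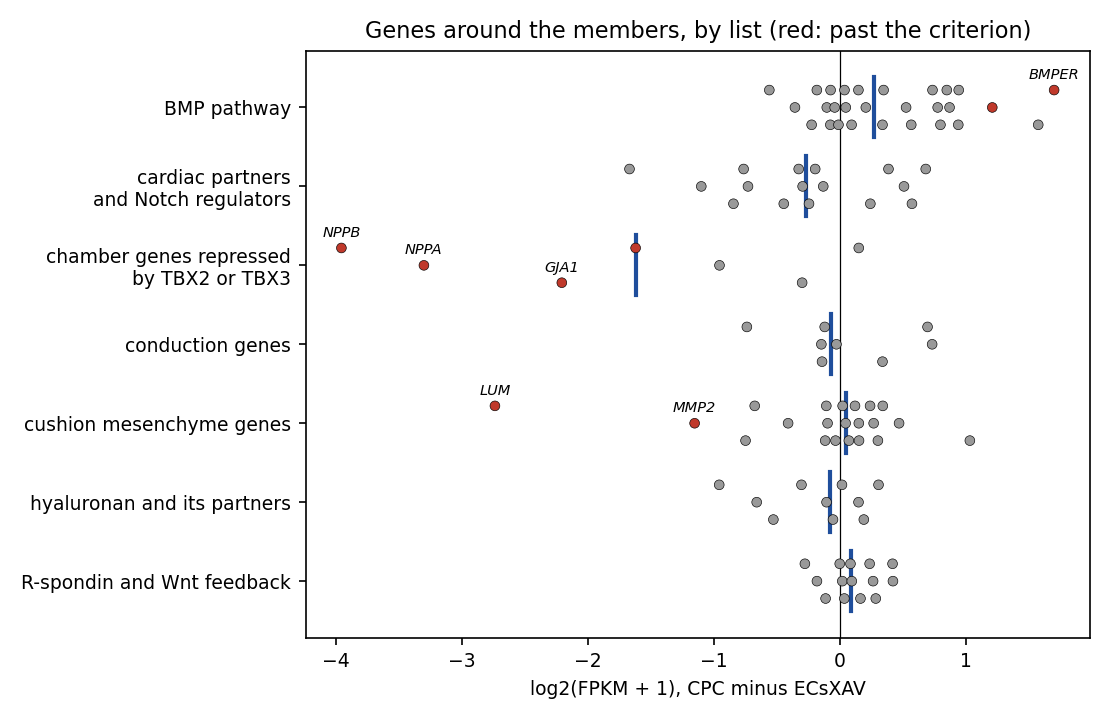
CPC minus ECsXAV difference in mean log2(FPKM + 1) for every tested gene of 7 lists, each point a gene, with red points for genes past the criterion and a blue bar at the median of the list. The chamber genes repressed by TBX2 or TBX3 have the lowest median at -1.62, and BMPER is the gene past the criterion farthest to the right. Labels name 6 of the 8 red points.

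Of 28 tested BMP pathway genes, 2 passed, both higher in CPC cultures, and the median difference was 0.27. BMPER, a secreted binding protein of BMPs, had 4.51 and 4.44 FPKM in ECsXAV and 19.6 and 14.4 FPKM in CPC replicates, a log2 difference of 1.70 (standard error 0.17, adjusted p = 0.0221 from limma). Each library was needed for this call, since the adjusted p of BMPER from limma ran from 0.0597 to 0.118 when any of the 4 was left out, and no gene of the list passed then.

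The genes of this list that BMP signaling is known to switch on did not pass, although several had small p-values. The ID genes encode inhibitors of bHLH factors and are direct SMAD targets. ID1 had 22.6 and 26.4 FPKM in ECsXAV and 46.6 and 49.5 FPKM in CPC replicates, a log2 difference of 0.95 with an adjusted p of 0.0382 from limma, below the fold threshold. ID4 had 3.32 and 3.68 FPKM against 17.1 and 8.97 FPKM, with a difference of 1.58 (adjusted p = 0.0745 from limma, and 0.00683 in a fit without short RNA genes). ID3 had 38.7 and 45.0 FPKM against 76.1 and 68.8 FPKM, with a difference of 0.78 (adjusted p = 0.0584 from limma). BAMBI, a decoy receptor, had a difference of 0.85 (adjusted p = 0.0379 from limma), also below the fold threshold. The inhibitory SMAD7 had 15.5 and 16.9 FPKM against 26.2 and 31.9 FPKM (difference 0.80, adjusted p = 0.0618 from limma). For the 4 ID genes, BAMBI, SMAD6 and SMAD7, CPC libraries lay above ECsXAV libraries without overlap, as they did for 24.4% of all tested genes. These genes were picked from the list with their values seen. Among its tested genes, BMP5 and FSTL1 had CPC libraries below ECsXAV libraries, as did 25.4% of all tested genes. The receptors BMPR1A, BMPR2, ACVR1 and ACVR2A had differences of -0.10 to 0.21, and ACVR2B had one of 0.35 (adjusted p = 0.321 from limma). FSTL1, a secreted glycoprotein and the most abundant gene of the list, had 205 and 202 FPKM against 132 and 144 FPKM, a difference of -0.56 (adjusted p = 0.0904 from limma).

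Of the 9 chamber genes that TBX2 or TBX3 are known to repress, 7 were tested and 4 passed, all lower in CPC cultures, and the median was -1.62. NPPA, which encodes atrial natriuretic peptide, had 264 and 331 FPKM in ECsXAV and 26.1 and 32.4 FPKM in CPC replicates, a log2 difference of -3.30 (standard error 0.18, adjusted p = 0.00605 from limma). NPPB, encoding the related peptide of the ventricle, had a difference of -3.96 (adjusted p = 9.2e-04 from limma). GJA1, the connexin of working myocardium, had a difference of -2.21 (adjusted p = 0.0139 from limma). GJA5, the atrial connexin, had 2.89 and 1.98 FPKM against 1.01 and 0.537 FPKM and did not pass (adjusted p = 0.115 from limma). SMPX, a small muscle protein, had 458 and 370 FPKM against 333 and 337 FPKM (difference -0.30, adjusted p = 0.407 from limma), and MYCN, which promotes proliferation, had a difference of 0.15. Without each library in turn, NPPB passed every time (adjusted p of 0.00413 to 0.0242 from limma) and NPPA without either ECsXAV replicate. NPPA had adjusted p of 0.0851 and 0.0644 from limma without CPC replicate 1 or 2, while GJA1 (0.0598 to 0.11) did not pass without any 1 library.

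None of the 16 tested cardiac partners and Notch regulators passed by limma, and their median was -0.27. HEY2, a repressor that bounds the canal on the ventricular side, had 46.8 and 47.6 FPKM in ECsXAV and 17.6 and 26.2 FPKM in CPC replicates (difference -1.10, adjusted p = 0.0706 from limma). HAND1, a factor of the outer curvature of the left ventricle, had 73.5 and 63.6 FPKM against 15.7 and 27.6 FPKM (difference -1.67, adjusted p = 0.0577 from limma). TBX20, a T-box factor of the chambers, had 64.5 and 70.5 FPKM against 42.8 and 32.3 FPKM (difference -0.84, adjusted p = 0.0825 from limma). NKX2-5, a partner of TBX2 on chamber promoters, had a difference of 0.24, and HAND2 had one of -0.76 (adjusted p = 0.247 from limma). When short RNA genes were left out of the fit, HEY2 and HAND1 passed (adjusted p of 0.00749 and 0.00361 from limma).

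Of 8 tested conduction genes, none passed by limma. HCN4, the pacemaker channel gene that accompanies TBX3 in the conduction system, had 27.6 and 29.3 FPKM in ECsXAV and 28.8 and 27.0 FPKM in CPC replicates. CACNA1G, a T-type calcium channel, had 0.639 and 1.19 FPKM against 2.29 and 2.02 FPKM (difference 0.73, adjusted p = 0.145 from limma). CACNA2D2, an auxiliary calcium channel subunit, had 4.24 and 5.20 FPKM against 2.26 and 2.59 FPKM (difference -0.74, adjusted p = 0.0843 from limma). ID2, the BMP target that is also counted here for its role in the conduction system, had 75.9 and 80.8 FPKM against 97.1 and 102 FPKM. SHOX2, a sinus node factor, reached at most 0.0155 FPKM.

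Among 21 tested genes of the cushion mesenchyme, 2 passed, both lower in CPC cultures, with a median of 0.05. LUM, the matrix proteoglycan lumican, had 8.21 and 10.7 FPKM in ECsXAV and 0.652 and 0.473 FPKM in CPC replicates (difference -2.74, adjusted p = 0.00909 from limma), and MMP2, a matrix metalloproteinase, had 16.5 and 18.4 FPKM against 6.83 and 7.81 FPKM (difference -1.15, adjusted p = 0.0268 from limma). LUM did not pass without CPC replicate 1 or 2 (adjusted p of 0.109 and 0.0917 from limma), and MMP2 did not pass without any 1 library (0.105 to 0.177). TGFB2, the cushion ligand of the TGF-beta family, had 38.3 and 32.7 FPKM against 85.8 and 63.0 FPKM (difference 1.03, adjusted p = 0.0699 from limma). TGFB2 passed, higher in CPC cultures, with a replicate block (adjusted p = 0.0462 from limma) and without short RNA genes (0.00772), so that 3 genes of the list passed in either fit. VIM, a mesenchymal filament, had 500.3 and 529.5 FPKM against 272 and 345 FPKM (adjusted p = 0.101 from limma), and the inducers of mesenchyme SNAI1 and TWIST1 had differences of 0.02 and 0.34. CDH2, which encodes N-cadherin, had 215 and 202 FPKM against 214 and 217 FPKM. The 6 fibroblast and mesenchymal markers summed to 109 to 145 FPKM in ECsXAV and 47.6 to 56.5 FPKM in CPC libraries, LUM included. Most of this sum was COL1A1 and COL3A1, with means of 70.1 and 35.5 FPKM in ECsXAV and 28.4 and 10.1 FPKM in CPC cultures. For PDGFRA the groups overlapped, with means of 10.9 FPKM in ECsXAV and 12.7 FPKM in CPC cultures. The 6 endothelial and endocardial markers summed to 15.5 to 16.6 FPKM in ECsXAV and 16.2 to 18.5 FPKM in CPC libraries. Most of the endothelial sum was KDR, with a mean of 8.43 FPKM in ECsXAV and 9.77 FPKM in CPC cultures. CDH5 had 1.19 and 1.49 FPKM in ECsXAV and 0.875 and 0.649 FPKM in CPC replicates (adjusted p = 0.301 from limma). TEK, below 1 FPKM, was also higher in ECsXAV without overlap. EMCN had 0.731 and 0.964 FPKM in ECsXAV and 1.79 and 0.975 FPKM in CPC replicates (adjusted p = 0.487 from limma). Its groups were separated by a factor of 1.01 only. The groups overlapped for KDR, NFATC1 and PECAM1. The 5 epicardial markers summed to 2.00 to 2.02 FPKM in ECsXAV and 0.914 to 1.09 FPKM in CPC libraries. Most of the ECsXAV sum was TBX18, with a mean of 1.49 FPKM, against 0.396 FPKM in CPC cultures. ALDH1A2 went the other way, at 0.0451 and 0.0600 FPKM in ECsXAV and 0.294 and 0.207 FPKM in CPC replicates. The 5 endoderm markers summed to 30.6 to 36.5 FPKM in ECsXAV and 16.5 to 18.3 FPKM in CPC libraries. AFP had 11.4 and 9.70 FPKM in ECsXAV and 0.199 and 0.124 FPKM in CPC replicates. APOA1, the most abundant of them, had 20.6 and 17.9 FPKM against 15.9 and 17.8 FPKM (adjusted p = 0.53 from limma). The part of these cell types in the differences described here was not tested.

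No partner of HAS2 among 10 tested hyaluronan genes passed by limma, and their median was -0.08. VCAN, the proteoglycan versican that binds hyaluronan in the cushions, had 165 and 162 FPKM in ECsXAV and 192 and 171 FPKM in CPC replicates. UGDH, which supplies the sugar precursor, had 5.84 to 7.28 FPKM in the 4 libraries, and HYAL2, which degrades hyaluronan, had 17.3 to 20.3 FPKM. HMMR, a hyaluronan-binding protein of dividing cells, had 4.26 and 3.25 FPKM against 1.27 and 1.63 FPKM (difference -0.96, adjusted p = 0.0705 from limma), and TMEM2, a cell surface hyaluronidase, had a difference of -0.66 (adjusted p = 0.0745 from limma). The largest ratio of mean FPKM among these 10 genes was that of HMMR, 2.60-fold higher in ECsXAV cultures.

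Among 14 tested genes of R-spondin action and Wnt feedback, none passed by limma, and the differences ran from -0.28 to 0.42 with a median of 0.09. Genes of the list with a mean below 1 FPKM were not tested. Of these, DKK1 had 0.986 and 1.24 FPKM in ECsXAV and 0.260 and 0.283 FPKM in CPC replicates. NKD2 had 0.748 and 1.28 FPKM against 0.339 and 0.570 FPKM. LGR4, the main R-spondin receptor in these libraries, had 34.5 and 32.01 FPKM in ECsXAV and 39.6 and 28.8 FPKM in CPC replicates, while LGR5 and LGR6 had at most 0.0389 FPKM. ZNRF3, the ubiquitin ligase that R-spondins block, had 3.76 and 3.85 FPKM against 4.89 and 4.46 FPKM. AXIN2, a feedback target of β-catenin, had 3.98 and 3.58 FPKM against 3.92 and 3.64 FPKM, and CTNNB1, encoding β-catenin, had a difference of -0.11. SFRP1, a secreted Wnt inhibitor, and TCF7L1, a repressor, each had a difference of 0.42 (adjusted p of 0.158 and 0.263 from limma). The 95% confidence interval of AXIN2 ran from -0.32 to 0.32 on the log2 scale.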

How the data were processed

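Poly-A RNA of unsorted day 14 cultures was sequenced. The authors computed the deposited FPKM per gene and per RefSeq transcript with Cufflinks and UCSC gene annotations on hg19, and the submitters' processing notes also name TopHat 1.3.3. Scaling between libraries and the use of strand for the FPKM are not given in the sources used here. The depth is known only relative to the other libraries, and lower depth makes low FPKM coarser.

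Where a symbol had more than 1 locus, its most highly expressed entry was kept. Differences were computed on log2(FPKM + 1) with limma 3.58.1 in R 4.3.3 (trend in the variance prior, Benjamini-Hochberg adjustment over 12398 genes averaging at least 1 FPKM). Tested on data simulated for this comparison over 12398 genes, 79.5% of 200 genes changed by 2 on the log2 scale passed, beside 7 unchanged genes. The changed genes were drawn only from those with a mean log2(FPKM + 1) above 2, so this share does not cover lower genes. Python 3.11.15, pandas 2.3.3 and matplotlib 3.10.9 were used for tables and figures.

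The 7 genes and all lists were chosen with earlier results of these data known. From each list the text names every gene past the criterion, the 2 largest differences and the 2 highest levels among genes tested, and other genes were named after their values were seen, for their role. Some genes that the rule names are not reported here. Alternatives were to add 0.1 in place of 1, to drop the filter or raise it to 5 FPKM, to scale by quantiles or by median ratios, to block on the replicate number, to drop genes of short RNAs (microRNAs, small nucleolar and Cajal body RNAs), to sum the transcript table, and to leave out each replicate in turn, where the lone library of a group is assumed to vary like the others. Gene positions came from GENCODE release 44 lifted to GRCh37, and sequences from RefSeq windows of GRCh38.p14 and from GRCh37.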

Additional observations from a re-analysis of the deposited data

How the results depend on the processing

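The differences of the 7 genes kept their direction under every alternative run for them, and none moved by more than the SD between replicates. Most of these runs could not have shown otherwise. With 2 replicates per group, leaving out a library moves the difference by no more than this SD. Nor can it reverse the sign where the groups do not overlap, as for all 7. The replicate block leaves the difference unchanged in this balanced design, and the summed transcripts gave the same values. Only the added 0.1 and the scaling by quantiles or by median ratios could have moved a difference by more. Over all genes, 266 passed the criterion, against 20 without a filter, 152 at a mean FPKM of at least 5, 176 with a replicate block, and 50 to 118 with a replicate left out (50 without CPC replicate 1, 72 without CPC replicate 2). Of the 266 genes, 33.1% were higher in CPC, against 60.0% without a filter, 78.0% without CPC replicate 1, 77.8% without CPC replicate 2 and 29.7% to 39.0% under the other alternatives. Of the BMP pathway genes 2 passed, against 0 without a filter, 1 at a mean FPKM of at least 5 and 1 with the block. The count rose to 3 with a pseudocount of 0.1 (SMAD9 added) and to 3 with short RNA genes left out (ID4 added). Of the cardiac partners 0 passed, against 1 (HAND1) with a pseudocount of 0.1 and 2 with short RNA genes left out. Of the chamber genes 4 passed, against 1 without a filter and 1 to 2 with a replicate left out, and of the cushion genes 2, against 0 and 0 to 1, and 3 with the block or with short RNA genes left out (TGFB2 added). With a replicate left out, the difference ran from -0.01 to 0.50 for NKX2-5, from -0.07 to 0.02 for HCN4, from -0.14 to 0.04 for HYAL2 (0.02 without ECsXAV replicate 2) and from -0.23 to 0.01 for CTNNB1, so that their signs were not fixed. Among the genes named in the text, the block changed the call of TGFB2 only (adjusted p = 0.0462 from limma). Same-numbered libraries had deviations correlated across genes, which are not replicates, at Spearman's rho 0.356 and Pearson's r 0.035 (0.376 and 0.186 without short RNA genes), and nothing says that the numbers mark shared cultures. Causes were not tested, except that leaving out a replicate leaves fewer samples. At 50.2% of the depth of the other ECsXAV library, ECsXAV replicate 2 gives the least precise low values.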
